A study of Homo sapiens with 12 samples.

Results

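Ribosome biogenesis genes that depend on the transcription factor MYC were followed through knockdown of JAK2 in HEL cells, an erythroleukaemia line that the labels call a JAK2V617F-mutant AML (acute myeloid leukaemia) line. The list held 42 genes in 6 roles: small nucleolar ribonucleoprotein (snoRNP) proteins, nucleolar proteins, the RNA polymerase I machinery, small subunit assembly, large subunit assembly, and growth enzymes with MAX. A gene was a member where the platform annotation gave it a probe set of its own, and its brightest probe set by mean log2 intensity over all arrays stood for it. Of the 42, 34 were measured, among 11940 genes measured in all. FBL, NOP58, GNL3, POLR1A, WDR43, NOB1, EBNA1BP2 and DDX18 have no array values here, and those with a promoter window enter only the motif counts.

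The study compared cells given lentiviral short hairpin RNAs in a pLKO vector that confers puromycin resistance. There were 2 hairpins against JAK2, called Jak2-9 and Jak2-10, and 2 controls that do not target JAK2. Luc is a luciferase hairpin, and GFP is named both a vector control and a hairpin control. Each of the 4 groups had 3 one-colour arrays, and all groups share the JAK2 mutation, the vector backbone and the single cell line. Replicates are numbered in the labels, which do not say that they were grown separately. The p-values therefore reflect only the scatter among these arrays, and part of it may be technical.

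Every cell division needs a new set of ribosomes. RNA polymerase I copies the ribosomal RNA genes in the nucleolus, snoRNPs modify and guide cleavage of the precursor, and assembly factors then build the small and the large subunit on it. MYC, as a dimer with MAX, binds the E-box in many promoters of this programme and is known for raising ribosome production in growing cells. In haematopoietic cells JAK2 passes cytokine receptor signals to STAT transcription factors, and MYC is among the genes known to respond to STAT signalling.

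The E-box CACGTG was searched for in RefSeq promoter windows of 300 bases, 250 before and 50 after a transcription start, in the GRCh38.p14 assembly. The motif reads the same on both strands, and no other motif was searched. A window was found for 35 of the 42 listed genes, and 17 of these (48.6%) held the motif. Among all measured genes, 1127 of 9593 with a window held it (11.7%), and among the measured genes of the list 13 of 29 did (44.8%). Counted by window, since a gene can have several starts, 35.3% of 51 held it for the listed genes. For all measured genes 8.57% of 14136 did. By role the motif was found for 4 of 7 snoRNP genes, 2 of 4 nucleolar genes, 0 of 5 RNA polymerase I genes, 3 of 4 small subunit genes, 4 of 8 large subunit genes and 4 of 7 growth genes. Of 200 related genes in 6 other lists, described below, 53 of 176 with a window held the motif (30.1%). By list that share ran from 15.4% to 38.6%, so a raised share was not particular to the 42 genes. A match describes letters and is not evidence of binding.

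The following stretches of 30 bases are shown because they place the motif in genes whose array values are given in full below, and in ODC1, a textbook MYC target. The capitals mark the E-box, and each stretch is written 5′ to 3′ on the strand of its gene.
RRP9, chr3:51941892-51941921 (minus strand): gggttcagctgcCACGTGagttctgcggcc
NOP10, chr15:34343289-34343318 (minus strand): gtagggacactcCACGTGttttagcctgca
NOP10, chr15:34343130-34343159 (minus strand): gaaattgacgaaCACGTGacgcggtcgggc
DDX21, chr10:68956604-68956633 (plus strand): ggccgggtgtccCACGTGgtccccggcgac
BYSL, chr6:41921515-41921544 (plus strand): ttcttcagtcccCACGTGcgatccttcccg
SRM, chr1:11060200-11060229 (minus strand): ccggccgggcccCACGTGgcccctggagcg
NME1, chr17:51153579-51153608 (plus strand): caagtgctgcgaacCACGTGggtcccgggc
ODC1, chr2:10448024-10448053 (minus strand): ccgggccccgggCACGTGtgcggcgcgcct
ODC1, chr2:10447990-10448019 (minus strand): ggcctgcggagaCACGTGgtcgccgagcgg
The first base of the motif lay 5 bases before the start in RRP9, 170 and 11 before it in NOP10, 31 before it in DDX21, and 199 before it in SRM. It lay 28 bases after the start in BYSL and 34 after it in NME1. In ODC1, which encodes the enzyme that commits ornithine to polyamines, it lay 29 before and 5 after.

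Of the 21 motifs in the listed genes, 16 (76.2%) began within 50 bases of a start, against 511 of 1357 (37.7%) in all measured genes. The motifs of UTP20, PES1, MRTO4, NOP2 and GAR1 were among the 16.

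**Figure D1:**
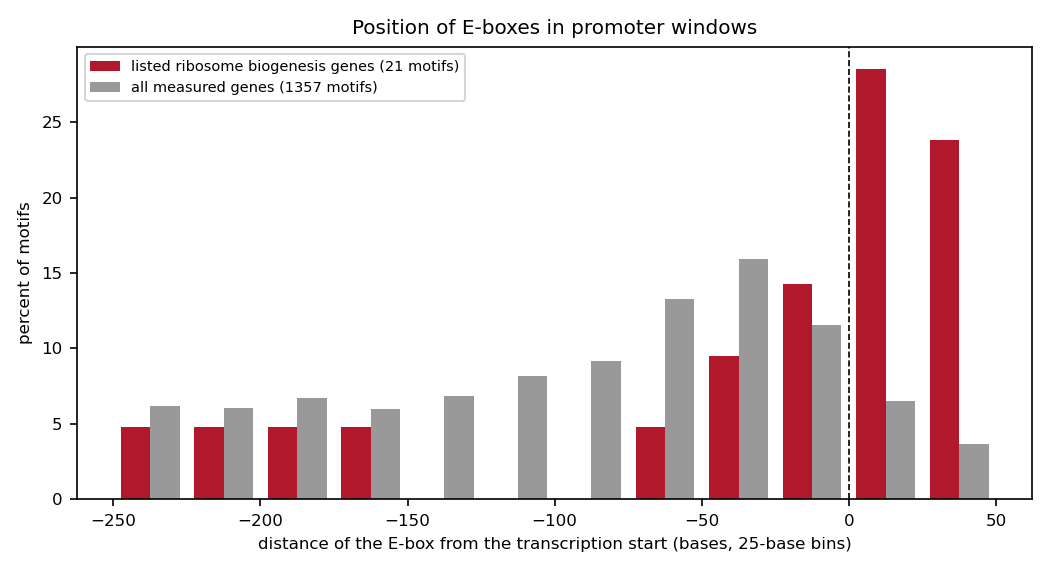
The bars give the percent of E-box motifs (vertical axis) that begin in each bin of 25 bases around the transcription start (horizontal axis, in bases), for the listed genes in red and for all measured genes in grey. The listed genes have 6 of their 21 motifs in the bin from 0 to 25 bases after the start, where all measured genes have 88 of 1357.

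The JAK2 transcript, which both hairpins target, was examined first. Its log2 intensities were 9.37, 9.89 and 10.09 with Jak2-9 and 10.06, 10.04 and 9.78 with Jak2-10, against 10.47, 10.63 and 10.56 with Luc and 10.47, 10.40 and 10.68 with GFP. Every knockdown array was lower than every control array. Over both hairpins JAK2 fell by 0.67 on the log2 scale (standard error 0.11, limma adjusted p = 0.00400). With Jak2-9 alone it fell by 0.75 (adjusted p = 0.00768), and with Jak2-10 alone the log2 fold change was -0.58 (adjusted p = 0.0824, and 0.00326 without Jak2-9 replicate 1). Of 11 erythroid and megakaryocytic markers of HEL cells, HBG1, HBG2, HBE1, NFE2, TAL1, ITGA2B, KLF1 and GATA1 had log2 intensities between 9.66 and 14.84 on all arrays. The other 3 lay lower, HBZ between 7.73 and 9.19, ITGB3 between 6.93 and 8.11 and GP9 between 6.22 and 7.66. The 5 lymphoid, 5 granulocyte or monocyte and 6 stromal or epithelial markers measured lay between 4.12 and 6.89, and none of these 16 passed the test in any comparison. HBZ, the embryonic zeta globin, rose by 0.62 with Jak2-9 (limma adjusted p = 0.0455), and without Jak2-9 replicate 1 its value was 0.34 (adjusted p = 0.120). Over both hairpins HBZ had 0.49 (adjusted p = 0.0735) with that array and 0.35 (adjusted p = 0.0157) without it.

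The array Jak2-9 replicate 1 stood apart from the other arrays of its group. There, 18 of the 34 genes (52.9%) were more than 0.3 log2 units away from the average of the remaining 2 Jak2-9 arrays, as were 41.1% of all genes. On the other 11 arrays between 0 and 8 of the 34 were. On that array 11 genes were higher by more than 0.3, led by RRP9 (0.69), CAD (0.67) and PES1 (0.62), and 7 were lower, led by UTP20 (-0.71), RRP1B (-0.58) and DDX21 (-0.49). The log2 difference between the 3′ and 5′ control probe sets of ACTB, a sign of RNA integrity and amplification, was 0.42 there, against 0.13 and 0.15 on the other Jak2-9 arrays and 0.13 to 0.38 on the rest. For GAPDH it was 0.09 there and between -0.13 and -0.00 elsewhere. The part of these differences in the results was not tested. Leaving this array out turned the sign of 6 of the 34 genes over both hairpins (CAD, NOP16, NOP56, POLR1C, PPAN and RRP1B). With Jak2-9 alone it turned the sign of 7 (CAD, NCL, NOLC1, NOP16, NPM1, RRP1B and UTP20), and for Jak2-10 minus Jak2-9 of 6 (CAD, DDX21, NCL, NOLC1, NPM1 and RRP1B). None of these values passed the test in either fit.

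**Figure D2:**
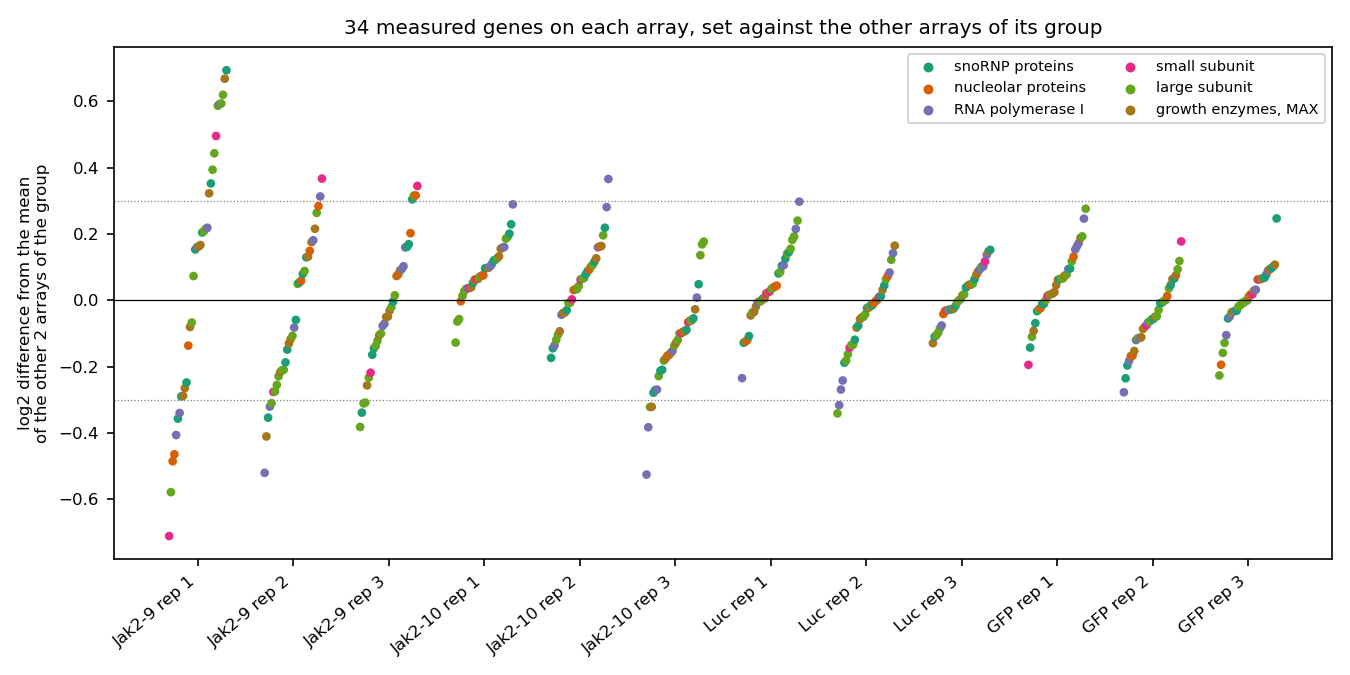
Each point is 1 of the 34 genes on 1 array, with the log2 difference from the mean of the other 2 arrays of its group on the vertical axis and the 12 arrays on the horizontal axis. On Jak2-9 replicate 1 the genes spread from -0.71 to 0.69, and on Luc replicate 3 they spread from -0.13 to 0.15.

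No gene of the list passed the test in any of 5 comparisons. For both JAK2 hairpins against both controls 0 of 34 were called, against 218 of all 11940 genes (1.83%), of which 52 were higher (0.436%) and 166 lower (1.39%). For Jak2-9 alone the list again had 0 calls and all genes had 3.07% (1.6% higher and 1.47% lower). For Jak2-10 alone the list had 0 calls and all genes had 0.687% (0.0419% higher and 0.645% lower). For Jak2-10 minus Jak2-9 and for Luc minus GFP, 0 genes of the list and 0.0% of all genes were called. At these shares among all genes, a count of 0 in 34 does not set the list apart. In bulk samples like these, fewer cells of a type and less RNA per cell cannot be told apart.

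The size of the changes was bounded more closely than the calls alone show. Over both hairpins the log2 fold changes of the 34 genes ran from -0.40 (POLR1B) to 0.30 (UBTF), with a median of 0.06, beside 0.04 over all genes. There were 25 above 0 and 9 below, beside 7580 above and 4360 below over all genes. The 95% interval of the fold change lay within 1.25-fold of no change, up or down, for 26 of the 34 genes. It lay within 1.5-fold for 33, POLR1B being the exception, and within 2-fold for all 34.

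The medians of the 34 differed between the hairpins. With Jak2-9 the median log2 fold change of the 34 was 0.12, beside 0.06 over all genes. Of the 34, 24 lay above 0 and 10 below, beside 7606 above and 4334 below over all genes. With Jak2-10 the median was -0.02, beside 0.02 over all genes, and it was 0.04 without Jak2-10 replicate 3. Here 13 lay above 0 and 21 below, beside 6753 above and 5187 below over all genes. The direct difference, Jak2-10 minus Jak2-9, had a median of -0.13 over the 34 and -0.04 over all genes, and its lowest adjusted p in the list was 0.499. Without Jak2-9 replicate 1 the median for Jak2-9 was 0.06 and the median difference was -0.09. Medians over all genes with an array left out are not given here. Set against the other Jak2-9 arrays, Jak2-9 replicate 1 had a median shift of 0.16 over the 34 and 0.07 over all genes. Intervals were wider for a single hairpin: 10 of 34 lay within 1.25-fold with Jak2-9 and 23 with Jak2-10. Within 1.5-fold there were 29 with Jak2-9 and 33 with Jak2-10.

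Before adjustment, 5 of the 34 genes had a p under 0.05 over both hairpins (14.7%), as did 16.3% of all genes. They were UBTF, BOP1, RRP9 and SRM, higher, and POLR1B, lower. With Jak2-9 there were 10 (29.4%), beside 24.2% of all genes, and with Jak2-10 there was only POLR1B (2.94%), beside 5.76%. For Jak2-10 minus Jak2-9 there were 4 (11.8%), all lower with Jak2-10, beside 9.83%. Luc minus GFP gave 0, beside 1.92%. The 6 knockdown and 6 control arrays did not overlap for SRM and UBTF, which is 5.88% of the list, beside 2.71% of all genes.

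**Figure D3:**
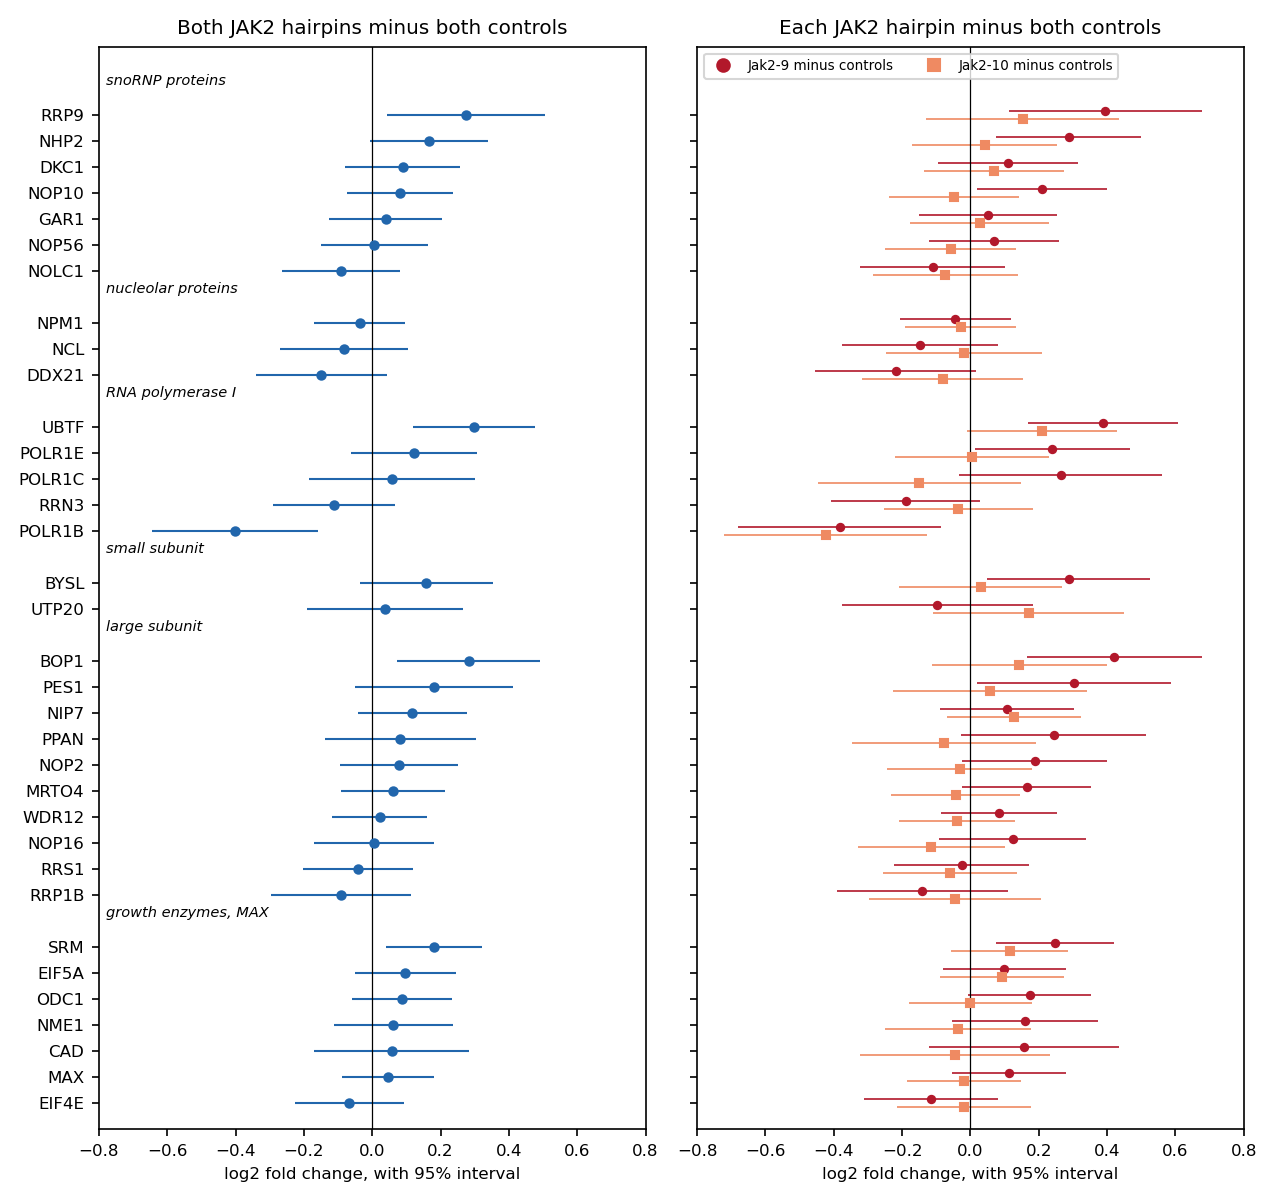
Points are log2 fold changes (horizontal axis) with 95% intervals for the 34 genes, grouped by role down the page, for both hairpins minus both controls on the left and for each hairpin minus both controls on the right. On the left all points lie between -0.40 and 0.30, and on the right the Jak2-9 point lies above the Jak2-10 point in value for 25 of the 34 genes. Over all 11940 genes, which are not drawn, the Jak2-9 value was the higher for 7109.

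The snoRNP proteins were represented by 7 of 9 genes, with a median log2 fold change of 0.08 over both hairpins, 0.11 with Jak2-9 and 0.03 with Jak2-10. RRP9 is a protein of the box C/D particle that guides early cleavage of the ribosomal RNA precursor. Its log2 intensities were 8.14, 7.44 and 7.45 with Jak2-9 and 7.50, 7.33 and 7.46 with Jak2-10, against 7.37, 7.24 and 7.35 with Luc and 7.14, 7.27 and 7.30 with GFP. All knockdown arrays but Jak2-10 replicate 2 lay above every control array, and Jak2-9 replicate 1 lay far above the rest. The log2 fold change over both hairpins was 0.27 ± 0.11 (SE, limma adjusted p = 0.227), and with Jak2-9 it was 0.40 (adjusted p = 0.0980). Without Jak2-9 replicate 1 these were 0.16 (adjusted p = 0.249) and 0.16 (adjusted p = 0.446).

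NOP10 belongs to the box H/ACA particle, which turns uridines of ribosomal RNA into pseudouridine. It had log2 intensities of 13.19, 13.01 and 12.95 with Jak2-9 and 12.93, 12.84 and 12.61 with Jak2-10, against 12.86, 12.87 and 12.85 with Luc and 12.81, 12.78 and 12.86 with GFP. The 3 Jak2-9 arrays lay above every control array, while the Jak2-10 arrays lay on both sides of them. The log2 fold change was 0.21 with Jak2-9 (adjusted p = 0.166; 0.14 without Jak2-9 replicate 1) and -0.05 with Jak2-10. The difference between the hairpins was -0.26 ± 0.10 (SE, limma adjusted p = 0.499).

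The other proteins of the H/ACA particle had log2 fold changes over both hairpins of 0.17 for NHP2, 0.09 for DKC1, the pseudouridine synthase, and 0.04 for GAR1. The other DKC1 probe sets had -0.002 and -0.01 over both hairpins. NOP56, a core protein of the C/D particle, had 0.01, and NOLC1, a nucleolar chaperone of snoRNPs, had -0.09. NHP2 had 0.29 with Jak2-9 (adjusted p = 0.106) and 0.04 with Jak2-10. Once Jak2-9 replicate 1 was left out, NHP2 had 0.17 with Jak2-9 and 0.11 over both hairpins, DKC1 had 0.14 over both hairpins, GAR1 had 0.08, NOP56 had -0.02 and NOLC1 had -0.03.

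At their brightest probe sets all 3 nucleolar proteins measured had log2 fold changes below 0, the median being -0.08 over both hairpins. DDX21 is an RNA helicase that takes part in both transcription and processing of ribosomal RNA. It gave 11.08, 11.59 and 11.54 with Jak2-9 and 11.54, 11.65 and 11.43 with Jak2-10, against 11.57, 11.54 and 11.51 with Luc and 11.79, 11.74 and 11.57 with GFP. Only Jak2-9 replicate 1 and Jak2-10 replicate 3 lay below every control array. Its log2 fold change was -0.15 ± 0.09 (SE, limma adjusted p = 0.428), and without Jak2-9 replicate 1 it was -0.07.

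NPM1, the nucleolar phosphoprotein known as nucleophosmin, spread least of the list over the 12 arrays. It gave 13.94, 14.07 and 14.08 with Jak2-9 and 14.09, 14.07 and 13.98 with Jak2-10, against 13.98, 14.11 and 14.10 with Luc and 14.07, 14.09 and 14.09 with GFP. The groups overlapped, and the log2 fold change was -0.04 ± 0.06 (SE, limma adjusted p = 0.796). The other NPM1 probe sets had 0.01 and 0.06 over both hairpins, above 0. NCL, or nucleolin, had -0.08 over both hairpins and -0.01 without Jak2-9 replicate 1.

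The RNA polymerase I machinery held the genes at both ends of the list, although its median over both hairpins was 0.06. UBTF encodes the factor that binds along active ribosomal RNA genes and opens them to the polymerase. It gave log2 intensities of 8.10, 7.74 and 8.02 with Jak2-9 and 7.80, 7.75 and 7.78 with Jak2-10, against 7.74, 7.36 and 7.52 with Luc and 7.70, 7.52 and 7.56 with GFP. The knockdown and control arrays did not overlap, though Jak2-9 replicate 2 and Luc replicate 1 both round to 7.74. The log2 fold change was 0.30 ± 0.08 over both hairpins (SE, limma adjusted p = 0.102). It was 0.39 with Jak2-9 (adjusted p = 0.0537) and 0.21 with Jak2-10 (adjusted p = 0.894). The second UBTF probe set had 0.08 over both hairpins. Leaving out Jak2-9 replicate 2 brought UBTF past the threshold over both hairpins (adjusted p = 0.0386), and leaving out Jak2-9 replicate 1 gave 0.26 (adjusted p = 0.122).

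POLR1B, the second largest subunit of RNA polymerase I, was chosen for full values after they were seen. It had 6.34, 6.82 and 6.67 with Jak2-9 and 6.68, 6.81 and 6.22 with Jak2-10, against 6.83, 7.08 and 7.04 with Luc and 7.17, 6.82 and 7.03 with GFP. The groups met at 6.82, with 4 of the 6 knockdown arrays at 6.68 or lower. This gave a log2 fold change of -0.40 ± 0.11 over both hairpins (SE, limma adjusted p = 0.104), -0.38 with Jak2-9 and -0.42 with Jak2-10. Its only probe set has the suffix by which the maker marks probes that may also bind other transcripts, so its values are uncertain. All 6 knockdown arrays, and the control arrays at 6.82 and 6.83, also lay within the range of the lymphoid, granulocyte or monocyte and stromal or epithelial markers.

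RRN3 is the initiation factor that links the polymerase to its promoter. It gave 8.92, 9.27 and 9.25 with Jak2-9 and 9.49, 9.21 and 9.20 with Jak2-10, against 9.39, 9.45 and 9.34 with Luc and 9.34, 9.16 and 9.34 with GFP. The groups overlapped, and the log2 fold change was -0.11 ± 0.08 (SE, limma adjusted p = 0.519). POLR1E, a polymerase I subunit, had 0.24 with Jak2-9 and 0.00 with Jak2-10. POLR1C, a subunit shared with RNA polymerase III, had 0.26 with Jak2-9 and -0.15 with Jak2-10, and the difference of -0.41 was the widest between the hairpins in the list (adjusted p = 0.499). Without Jak2-9 replicate 1 POLR1C had 0.07 with Jak2-9, a difference of -0.22, and -0.04 over both hairpins. In the same fit POLR1B had -0.25 with Jak2-9, and RRN3 had -0.06 over both hairpins.

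Small subunit assembly was represented by 2 of 4 genes, BYSL and UTP20. BYSL, a factor of late small subunit maturation, had 10.17, 9.65 and 9.69 with Jak2-9 and 9.60, 9.62 and 9.51 with Jak2-10, against 9.54, 9.42 and 9.60 with Luc and 9.45, 9.70 and 9.59 with GFP. Only Jak2-9 replicate 1 lay above every control array. The fitted log2 fold change was 0.16 ± 0.09 (SE, limma adjusted p = 0.403), and without that array it was 0.08. UTP20, a large scaffold protein of the small subunit processome, was added after its values were seen, as the gene lowest on that array relative to its group. It had 8.03, 8.75 and 8.73 with Jak2-9 and 8.81, 8.77 and 8.73 with Jak2-10, against 8.56, 8.55 and 8.53 with Luc and 8.66, 8.60 and 8.70 with GFP. Every knockdown array but Jak2-9 replicate 1 lay above all controls. Its log2 fold change was 0.04 over both hairpins (adjusted p = 0.884) and 0.16 without that array (adjusted p = 0.208).

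Large subunit assembly was represented by 10 of 12 genes, with a median of 0.07 over both hairpins, 0.14 with Jak2-9 and -0.04 with Jak2-10. BOP1 and PES1 form, with WDR12, the complex that processes the precursor of the large subunit RNAs. BOP1 gave 10.79, 10.22 and 10.19 with Jak2-9 and 10.08, 10.05 and 10.24 with Jak2-10, against 10.04, 9.89 and 10.02 with Luc and 9.90, 10.05 and 9.97 with GFP. The groups met at 10.05, and Jak2-9 replicate 1 lay far above the other arrays. The fitted log2 fold change was 0.28 ± 0.10 over both hairpins (SE, limma adjusted p = 0.182) and 0.42 with Jak2-9 (adjusted p = 0.0620). Without Jak2-9 replicate 1 these were 0.19 (adjusted p = 0.182) and 0.23 (adjusted p = 0.265). The second BOP1 probe set had 0.24 over both hairpins.

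The partners of BOP1 had 0.18 (PES1) and 0.02 (WDR12) over both hairpins. For PES1 the value with Jak2-9 was 0.30 with Jak2-9 replicate 1 and 0.10 without it.

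RRP1B, a nucleolar protein of the large subunit precursor, had 10.51, 11.07 and 11.10 with Jak2-9 and 11.11, 10.98 and 10.87 with Jak2-10, against 11.03, 11.02 and 11.04 with Luc and 11.03, 11.03 and 11.03 with GFP. The control arrays were nearly level, and the knockdown arrays lay on both sides of them. This gave a log2 fold change of -0.09 ± 0.10 (SE, limma adjusted p = 0.655), and it was 0.00 without Jak2-9 replicate 1. The remaining large subunit genes lay between -0.04 and 0.12 over both hairpins. They were NIP7 (0.12), PPAN (0.08), NOP2 (0.08), MRTO4 (0.06), NOP16 (0.01) and RRS1 (-0.04). PPAN had 0.24 with Jak2-9 and -0.08 with Jak2-10, a difference of -0.32 (adjusted p = 0.499). When Jak2-9 replicate 1 was left out, PPAN had 0.05 with Jak2-9, a difference of -0.12 and -0.02 over both hairpins. Without that array NOP2 had 0.01, MRTO4 had 0.02 and NOP16 had -0.07 over both hairpins.

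The growth enzymes and MAX, all 7 measured, had a median of 0.06 over both hairpins, 0.16 with Jak2-9 and -0.02 with Jak2-10. SRM, spermidine synthase, gave 12.01, 11.82 and 11.88 with Jak2-9 and 11.81, 11.75 and 11.75 with Jak2-10, against 11.54, 11.61 and 11.72 with Luc and 11.72, 11.61 and 11.73 with GFP. All 6 knockdown arrays lay above all 6 controls. The fitted log2 fold change was 0.18 ± 0.07 over both hairpins (SE, limma adjusted p = 0.196), and without Jak2-9 replicate 1 it was 0.15 (adjusted p = 0.249).

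NME1, a nucleoside diphosphate kinase, gave 13.41, 13.05 and 13.13 with Jak2-9 and 13.10, 13.11 and 12.78 with Jak2-10, against 13.03, 13.01 and 12.99 with Luc and 13.07, 13.01 and 13.11 with GFP. The groups overlapped, the knockdown arrays holding both the highest and the lowest value. Its log2 fold change was 0.06 ± 0.08 (SE, limma adjusted p = 0.734). The translation factors EIF5A and EIF4E had 0.10 and -0.07 over both hairpins. ODC1 had 0.09, CAD, the enzyme that starts pyrimidine synthesis, had 0.06, and MAX, the dimer partner of MYC, had 0.05. Leaving out Jak2-9 replicate 1, the value over both hairpins was -0.05 for CAD, 0.01 for NME1 and -0.02 for EIF4E.

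**Figure D4:**
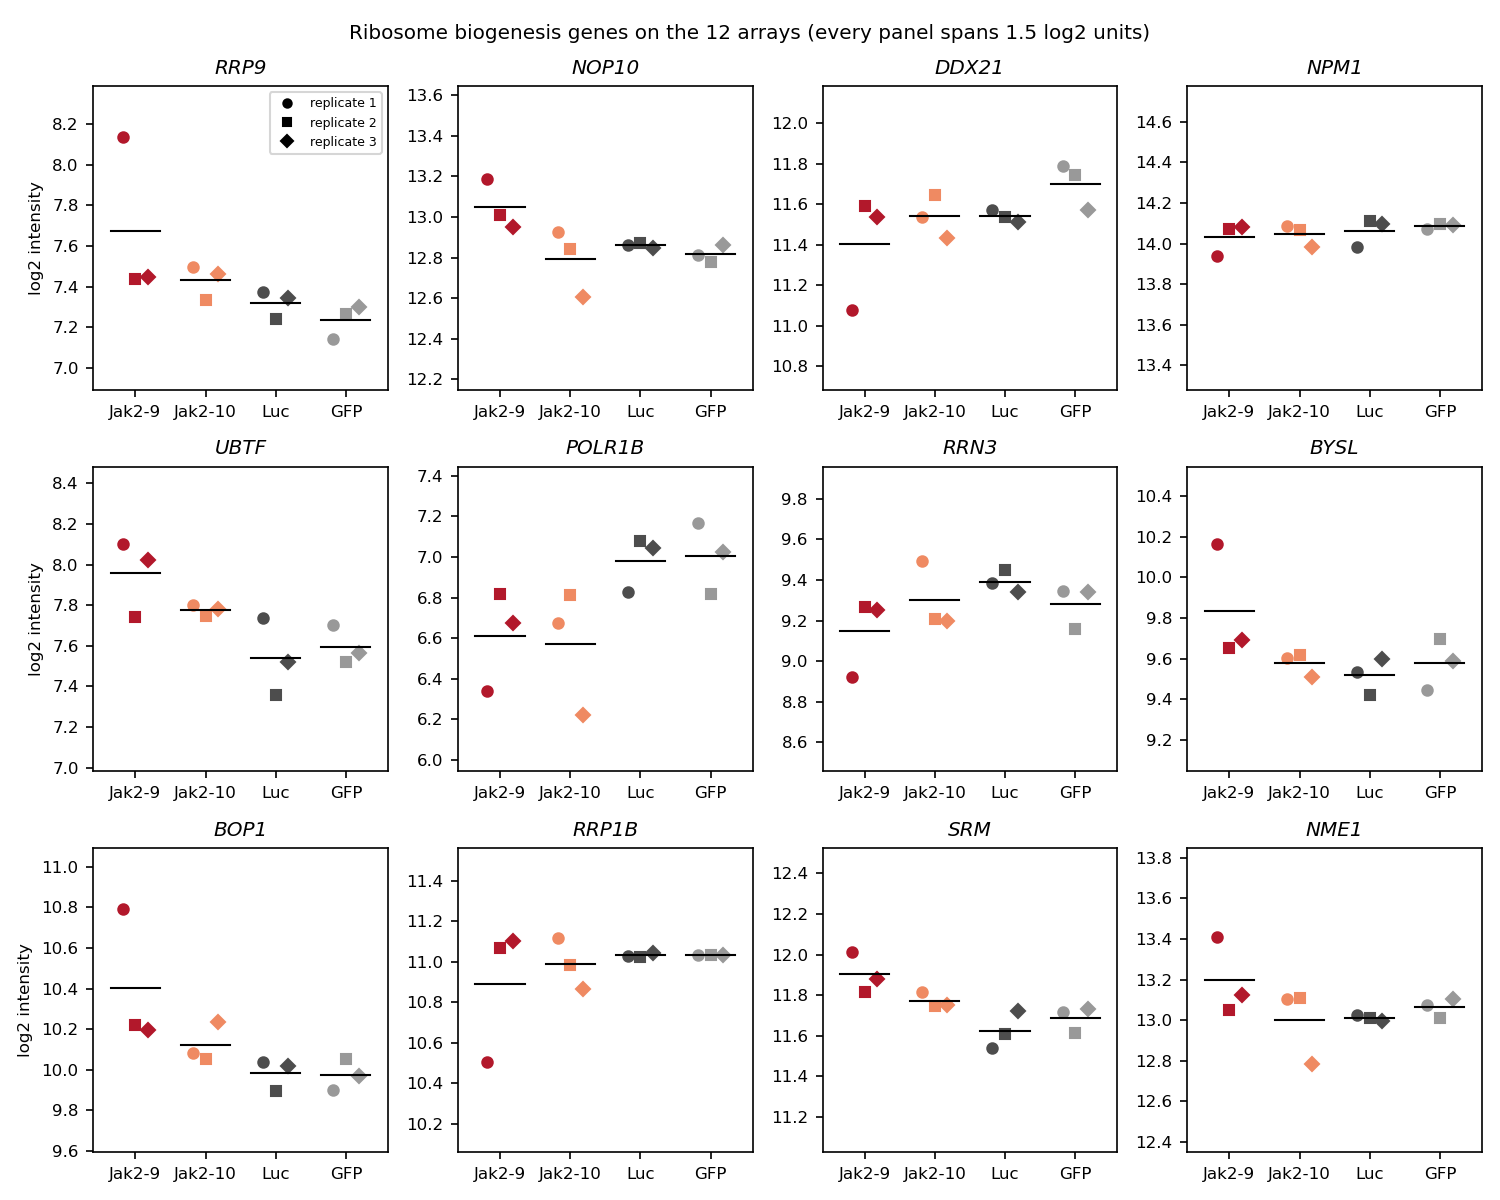
Each panel gives the log2 intensity (vertical axis) of 1 gene on the 12 arrays, by group on the horizontal axis, with a line at each group's mean. Jak2-9 replicate 1 is the highest point for RRP9 (8.14), BYSL (10.17) and BOP1 (10.79), and the lowest for DDX21 (11.08) and RRP1B (10.51).

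MYC itself gave 12.48, 12.82 and 12.84 with Jak2-9 and 12.88, 12.84 and 12.63 with Jak2-10, against 12.80, 12.74 and 12.66 with Luc and 12.81, 12.68 and 12.77 with GFP. The knockdown arrays lay on both sides of the controls. The fitted log2 fold change was 0.00 ± 0.08 over both hairpins (SE, limma adjusted p = 0.993), -0.03 with Jak2-9 and 0.04 with Jak2-10. In the fit without Jak2-9 replicate 1 MYC had 0.06 over both hairpins (adjusted p = 0.737) and 0.08 with Jak2-9 (adjusted p = 0.753).

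The listed genes with an E-box in their window were also set beside those without. Over both hairpins the 13 measured genes with the motif had a median log2 fold change of 0.08 and the 16 without had 0.05. With Jak2-9 the medians were 0.17 and 0.11, and with Jak2-10 they were -0.00 and -0.03. Both groups of genes ranged on both sides of 0 in all 3 comparisons.

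A wider set of 200 genes in 6 lists, of which 171 were measured, covers the rest of the pathway. Over both hairpins 1 of them rose and 1 fell (1.17% called, beside 1.83% of all genes), both among the 30 other genes of RNA polymerases I and III. TAF1D is a subunit of the selectivity factor that places RNA polymerase I on its promoter. It gave 10.51, 10.60 and 10.54 with Jak2-9 and 10.68, 10.63 and 10.46 with Jak2-10, against 10.96, 11.12 and 11.14 with Luc and 10.99, 10.89 and 10.87 with GFP. All knockdown arrays lay below all controls, and TAF1D fell by 0.43 on the log2 scale (standard error 0.07, limma adjusted p = 0.00290). It fell by 0.45 with Jak2-9 (adjusted p = 0.0101) and by 0.40 with Jak2-10 (adjusted p = 0.0414). The call with Jak2-10 was lost with the replicate number as a block (adjusted p = 0.0747) and when any 1 array except Jak2-9 replicate 1 was left out (adjusted p from 0.0532 to 0.261).

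POLR2E, a subunit shared by RNA polymerases I, II and III, gave 11.21, 11.08 and 11.20 with Jak2-9 and 11.04, 11.05 and 10.89 with Jak2-10, against 10.64, 10.52 and 10.69 with Luc and 10.61, 10.81 and 10.75 with GFP. All knockdown arrays lay above all controls, and POLR2E rose by 0.41 (standard error 0.07, limma adjusted p = 0.00445). It rose by 0.49 with Jak2-9 (adjusted p = 0.00541), and with Jak2-10 the value was 0.32 (adjusted p = 0.165). Both calls over both hairpins held when each array was left out in turn. With GFP as the only control the adjusted p was 0.106 for TAF1D and 0.0970 for POLR2E.

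**Figure D5:**
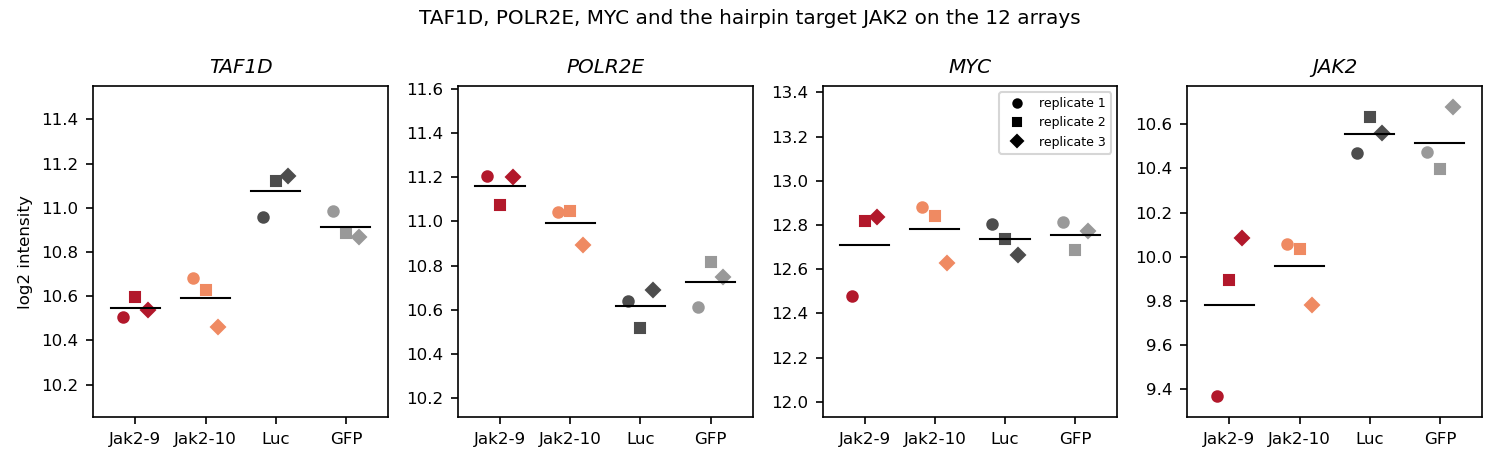
Each panel gives the log2 intensity (vertical axis) of TAF1D, POLR2E, MYC and JAK2 on the 12 arrays by group (horizontal axis), with a line at each group's mean and a symbol for each replicate. The knockdown points of TAF1D lie at 10.68 or lower and its control points at 10.87 or higher, while those of MYC overlap.

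With Jak2-9, 4 of the 171 genes of the wider set rose and 1 fell (2.92% called, beside 3.07% of all genes). Among the other 48 large subunit factors, 0 were called over both hairpins, and 3 rose with Jak2-9 (6.25%, beside 1.6% of all genes). They were NLE1 (0.60, limma adjusted p = 0.0354), an assembly factor known from yeast to be released as the particle matures, WDR18 (0.56, adjusted p = 0.0254), a subunit of a complex that acts on the nucleolar precursor, and EIF6 (0.41, adjusted p = 0.0455), which keeps the large subunit from joining the small one. All 3 calls were lost without Jak2-9 replicate 1, with adjusted p of 0.0999, 0.0934 and 0.178. NLE1 lost its call also without Jak2-10 replicate 1 or any 1 control array (0.0544 to 0.0835), and WDR18 without Luc replicate 2, GFP replicate 2 or GFP replicate 3 (0.0538 to 0.0691). EIF6 lost its call also when any 1 Jak2-10 or control array was left out (0.0570 to 0.105). Under quantile normalization NLE1 (0.0517) and EIF6 (0.0696) missed the threshold. In the fit of only the arrays compared all 3 missed it (NLE1 0.0757, WDR18 0.0582 and EIF6 0.0919). NLE1 missed it also with the mean of all probe sets (0.0667). EIF6 did so with arrays centred on their medians (0.0574) and with array weights (0.0684). Over both hairpins NLE1 passed without Jak2-9 replicate 1 (0.31, adjusted p = 0.0349), without Jak2-9 replicate 2 (0.0199) and with array weights (0.0226). WDR18 did so without Jak2-9 replicate 3 (0.0388) and with array weights (0.0228). The only WDR18 probe set has the same suffix as that of POLR1B, so its values are uncertain too.

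None of the other 40 small subunit factors, 11 exosome genes, 10 MYC network genes or 32 genes of nucleotide, polyamine and translation factor supply passed the test in these comparisons. The genes with the lowest p in each list over both hairpins were DCAF13 (-0.32, limma adjusted p = 0.0790) and NOC4L (0.37, 0.200) of the small subunit processome. For the exosome, which trims ribosomal RNA, they were EXOSC4 (0.28, 0.137) and EXOSC5 (0.29, 0.173). For the MYC network they were MLXIP (-0.27, 0.148) and MYCN (-0.18, 0.366), and for supply they were DOHH (0.42, 0.185), which completes the hypusine of EIF5A, and SHMT1 (0.25, 0.185). The DCAF13 probe set had log2 intensities of only 4.31 to 4.95, no higher than those of the markers of other lineages. It was not shown to be above background, and nothing is read from its values. MYCN (5.59 to 6.32) and SHMT1 (5.63 to 6.15) also lay within the range of those markers. Over both hairpins EXOSC4 (0.0380) and EXOSC5 (0.0362) passed with array weights.

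With Jak2-9 alone, EXOSC5 (0.45, adjusted p = 0.0539) passed under the replicate block (0.0327), without the dimmest 30% of genes (0.0493), with the mean of all probe sets (0.0471), with an intensity trend (0.0484), with array weights (0.0454) and without Jak2-9 replicate 3 (0.0167). EXOSC4 (0.40, adjusted p = 0.0537) passed without the dimmest 30% (0.0493), with the trend (0.0447), and without Jak2-9 replicate 2 (0.0292) or 3 (0.0306). NOC4L (0.55, adjusted p = 0.0731) passed under the block (0.0420) and without Jak2-9 replicate 3 (0.0172), and DOHH (0.59, adjusted p = 0.0750) without Jak2-9 replicate 2 (0.0210). Without Jak2-9 replicate 1 the values with Jak2-9 were 0.28 for EXOSC5, 0.24 for EXOSC4, 0.27 for NOC4L and 0.35 for DOHH, and none passed.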

How the data were processed

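The authors deposited 1 table of linear intensity values per probe set, made by RMA, per the submitters' processing notes (version not given in the sources used here). This method subtracts background and makes array distributions alike, which compresses fold changes of dim probe sets. Per the labels' protocols, 20 ng of total RNA was amplified linearly with a NuGEN kit. The design had assumed log2 values, and the deposited intensities ran from 11.2 to 36233.5, so log2 was taken with no pseudocount. Array medians were 44.9 to 49.1. Depth has no counterpart on arrays, and their number limits the precision.

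Of 22930 probe sets, 524 were controls, 19415 had 1 gene symbol, 125 had several and 2866 were not named here, and the brightest probe set stood for each gene. Intensities of different probe sets share no common scale, and they were set side by side only to take the brightest probe set and to check markers. Group means of all 12 arrays were fitted with limma 3.58.1 in R 4.3.3, with Benjamini-Hochberg adjustment over 11940 genes and a threshold of 0.05. On simulated data for both hairpins against both controls, with 11940 genes, the fit recovered 29.3% of changes of 0.3 log2 units. It recovered 78.7% of those of 0.5 and called 0.0681% of unchanged genes. These rates describe the simulated data only. Whether they hold for the real arrays, among which an array stood apart from its group, was not tested.

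The genes and lists were chosen with earlier results of these data known. Values on all arrays are given for JAK2, MYC and, per role, for the gene with the lowest p over both hairpins and the one with the brightest probe set. In each wider list, up to 4 genes past the threshold with the largest change were named, or the 2 with the lowest p. Alternatives were quantile normalization, arrays centred on their medians, array weights, an intensity trend, a replicate block, genes averaged over their probe sets, no genes of the dimmest 30%, single controls, only the arrays compared, and leaving out each array. Of the control transcripts with 3′ and 5′ probe sets, ACTB and GAPDH are given, and another is not reported here.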

Additional observations from a re-analysis of the deposited data

Results flagged for a closer look

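Among the 11 genes of the list given in full by role, the 6 knockdown and the 6 control arrays were each searched for a single value far from the rest. Of the 22 groups, 5 held one. The search flags about 1 in 20 groups by chance where groups are independent and alike. Here genes were chosen partly by their p, flags shared an array, and the knockdown groups joined both hairpins. That rate is therefore no measure of these flags. On Jak2-9 replicate 1, RRP9 had a log2 intensity of 8.14, with the other knockdown arrays between 7.33 and 7.50. On the same array BYSL had 10.17, with the others between 9.51 and 9.69, and BOP1 had 10.79, with the others between 10.05 and 10.24. Among the controls, NPM1 had 13.98 on Luc replicate 1, with the others between 14.07 and 14.11. RRN3 had 9.16 on GFP replicate 2, with the others between 9.34 and 9.45.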

How the results depend on the processing

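The count of called genes on the list of 34 stayed at 0 for Jak2-10, for Jak2-10 minus Jak2-9 and for Luc minus GFP under all alternatives run. Over both hairpins it was 0 except without Jak2-9 replicate 2, where it was 1 (UBTF), a range of 0 to 1 over the arrays left out. With Jak2-9 it was 1 with an intensity trend (BOP1, adjusted p = 0.0449), 1 without the dimmest 30% of genes (UBTF, adjusted p = 0.0493), and 0 to 3 over the arrays left out. The 3 were RRP9, UBTF and BOP1 without Jak2-9 replicate 2. RRP9 and BOP1 were the 2 without Jak2-9 replicate 3, and UBTF was the 1 without Luc replicate 1. The cause was not tested.

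With the replicate number as a block the count was 1 with Jak2-9 (UBTF, adjusted p = 0.0296) and 0 in the other comparisons. Same-numbered arrays deviated together in 5 of 18 pairs (r over 0.1, range -0.118 to 0.181). Arrays of unlike number were not compared, so this check cannot decide whether the numbers pair the arrays. The main fit used no block. Over all genes the block gave 222 calls for both hairpins, against 218 without it, 545 against 367 for Jak2-9 and 47 against 82 for Jak2-10. The block also ended the call of TAF1D with Jak2-10 (adjusted p = 0.0747) and brought EXOSC5 (0.0327) and NOC4L (0.0420) past the threshold with Jak2-9.

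The count over all genes ranged from 131 to 352 for both hairpins as arrays were left out, from 156 to 1309 for Jak2-9 and from 26 to 149 for Jak2-10. Array weights gave 540 for both hairpins and 193 for Jak2-10, GFP alone gave 76 for both hairpins, and fits of only the arrays compared gave 157 for Jak2-9 and 132 for Jak2-10. The median of the list ranged from 0.02 to 0.08 over both hairpins, from 0.06 to 0.17 with Jak2-9 and from -0.05 to 0.04 with Jak2-10. No called value changed sign. Among values not called, the sign differed in 35 of 714 over both hairpins, 17 of 680 with Jak2-9 and 40 of 680 with Jak2-10.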

Other observations

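Of the 34 genes, 12 had more than 1 probe set, and 11 of their 23 other probe sets had a log2 fold change of the same sign as the brightest one over both hairpins. The other probe sets ran from -0.23 (RRN3) to 0.24 (BOP1). All 3 other probe sets of EIF5A were above 0 (0.10, 0.11 and 0.02), as was the brightest, while the 5 others of MAX ran from -0.17 to 0.20. NOLC1 had -0.09 at its brightest probe set and 0.04 and 0.03 at the others. RRP1B likewise had -0.09 at the brightest and 0.10 at the other.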
